A study of Mus musculus with 2 samples.

Results

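Transthyretin is a carrier protein of thyroid hormone and retinol-binding protein. Its gene was followed in TgS1 cells, a Schwann cell line of the mouse with the genotype TTR V30M tg, which is a transgene for human transthyretin carrying the V30M allele of hereditary ATTR amyloidosis. Schwann cells ensheath the axons of peripheral nerves. The same line, with the same transgene, was cultured for a long time in DMEM or in SCM, and each medium gave 1 RNA library, of 29085791 assigned reads for DMEM and 36666676 for SCM. The column names carry the number 1 for DMEM and 3 for SCM, which may be replicate numbers, and any further libraries were not analysed here. The series text calls the first medium S-DEMEM, and neither medium is described further. The labels give neither the promoter that drives the transgene nor any change of the mouse gene. The values are FPKM, reads scaled for gene length and library depth, so levels of different genes are compared per length throughout. Of the 55323 rows of the table, 9 genes were taken by name: human TTR, mouse Ttr and 7 regulators, Hnf4a, Foxa1, Foxa2, Foxa3, Cebpa, Cebpb and Onecut1. With 1 library per medium no difference has a replicate check and no test was made. Intervals are 95% exact intervals of the reads and cover counting error only.

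In the liver, the main source of the protein in blood, the transthyretin gene is switched on by a set of factors that bind its promoter and enhancer. HNF4A is a nuclear receptor, the FOXA proteins are forkhead factors that can open chromatin, the C/EBP proteins are leucine zipper factors, and ONECUT1 is also called HNF6. The choroid plexus makes transthyretin for the cerebrospinal fluid, and alpha cells of the pancreatic islet express it too. The series title relates the human gene in this Schwann cell model to the repair state, the state Schwann cells take after nerve injury.

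Human TTR was far lower in the SCM library and mouse Ttr higher, while the regulators either had almost no reads in both libraries or differed by less than 2-fold. Cebpb was the abundant regulator, at 24.8 FPKM in DMEM and 23.7 in SCM. Hnf4a, Foxa1, Foxa2 and Onecut1 had 0 reads in both libraries. A gene counted as measured if it reached 1 FPKM in 1 or both libraries, and as higher or lower in SCM if it passed 2-fold on the scale of log2(FPKM + 1). By that rule 4 of the 9 genes were measured and 2 were called, human TTR and mouse Ttr. Among the 12334 measured rows of the table, 5.89% were called, 3.10% higher in SCM and 2.80% lower.

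**Figure D1:**
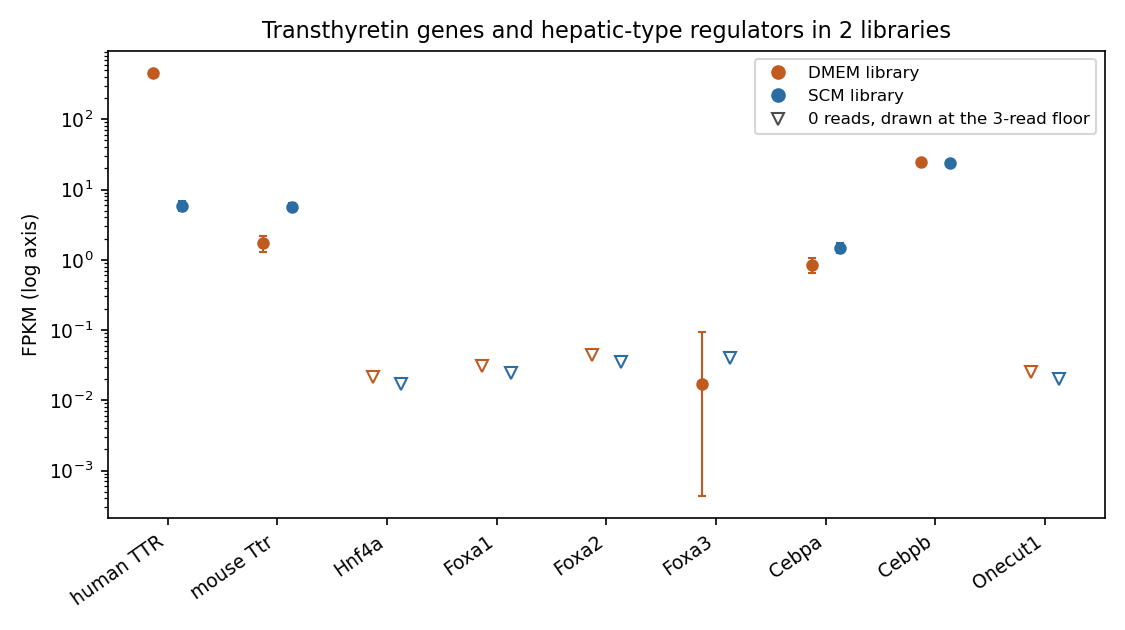
Level of each of the 9 genes in FPKM on a log axis, in the DMEM library (orange) and the SCM library (blue). Points are the deposited values with 95% counting intervals, and open triangles mark 0 reads at the level that 3 reads would give. Human TTR lies at 461 FPKM in DMEM and 5.84 in SCM, mouse Ttr at 1.71 and 5.73, Cebpb at 24.8 and 23.7, and 5 regulators lie below 0.1 FPKM in both libraries.

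The human transgene has its own row, on a reference transcript of 616 bases, with no position in the mouse genome. It had 8262 reads in DMEM and 132 reads in SCM, although the SCM library was the deeper one. By level it ranked 44 among all rows in DMEM and 6007 in SCM. Per length this was 461 FPKM (counting interval 451 to 471) against 5.84 FPKM (4.89 to 6.93), so that SCM held 1.27% of the DMEM level. Both libraries lay far above the level of 3 reads, which is 0.167 FPKM in DMEM and 0.133 in SCM. Human TTR was 78.9-fold lower in SCM (66.4 to 94.4), and the difference on the log2(FPKM + 1) scale was -6.08. In total RNA of a culture, fewer cells that express a gene and less RNA per cell cannot be told apart.

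Mouse Ttr (ENSMUSG00000061808) lies on chromosome 18 of GRCm38 at 20665280 to 20674321, plus strand. It had 59 reads in DMEM and 249 in SCM. Its level was 1.71 FPKM (1.30 to 2.21) in DMEM and 5.73 FPKM (5.04 to 6.48) in SCM, and these intervals do not overlap. Mouse Ttr was thus 3.35-fold higher in SCM (2.51 to 4.53), with a log2 difference of 1.31. With a pseudocount of 3 FPKM that difference was 0.89, under the 2-fold limit.

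With the transgene lower and the mouse gene higher in SCM, the makeup of the transthyretin RNA differed between the libraries. In DMEM the human row made up 99.6% of the summed FPKM of both genes (99.5 to 99.7), and in SCM 50.5% (45.1 to 55.9). The human level was 270-fold above the mouse level in DMEM (209 to 354). In SCM the same ratio was 1.02 (0.820 to 1.27), so the 2 genes could not be told apart in level at this depth. By reads, without regard to length, the human share was 99.3% (99.1 to 99.5) and 34.6% (29.9 to 39.7). The summed level was 463 FPKM in DMEM and 11.6 in SCM, which is 40.0-fold lower. The human row was 455 FPKM lower in SCM and the mouse row 4.02 FPKM higher.

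**Figure D2:**
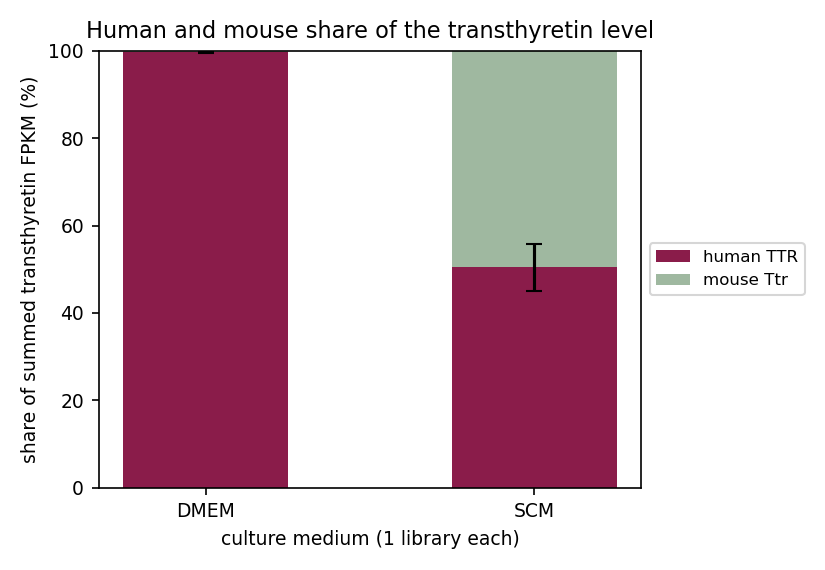
Share of the summed transthyretin FPKM that belongs to human TTR (dark) and to mouse Ttr (light) in each library, in percent. Black bars are 95% counting intervals. The human part fills 99.6% of the DMEM bar, where the mouse part is too thin to see, and 50.5% of the SCM bar.

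The human and mouse messages are related in sequence, and how many reads of one were placed on the other was not tested. In DMEM, where the human row was highest, the mouse row had 0.714 reads for every 100 human ones. In SCM the mouse row had 249 reads beside 132 human ones, or 189 for every 100. Placement of mouse reads on the human row was not tested either, and any such reads would add to the human level in SCM. The mouse row was the higher in the library where the human row was the lower.

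No measured row next to mouse Ttr passed 2-fold. Gm16090, a long noncoding RNA on the opposite strand, has its own start 0.020 kb before that of Ttr, so that the 2 are read away from each other, and had 34 reads in DMEM and 53 in SCM, a ratio of 1.24 (0.789 to 1.96). The desmoglein genes Dsg3 and Dsg2, which encode adhesion proteins of epithelia, lie before Ttr and had 0 reads in both libraries and 0 and 1 reads, respectively. On the other side B4galt6, a galactosyltransferase gene of glycolipid synthesis on the opposite strand, whose near edge, its 3′ end, lies 10.3 kb after Ttr, had 28.2 FPKM in DMEM and 31.1 in SCM. Trappc8, a gene of vesicle transport, had 8.42 and 8.70 FPKM. The pseudogene Gm10269, 8.27 kb after Ttr, had 28.4 and 20.3 FPKM and, as a processed pseudogene, is uncertain because its reads may be shared with its parent gene.

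**Figure D3:**
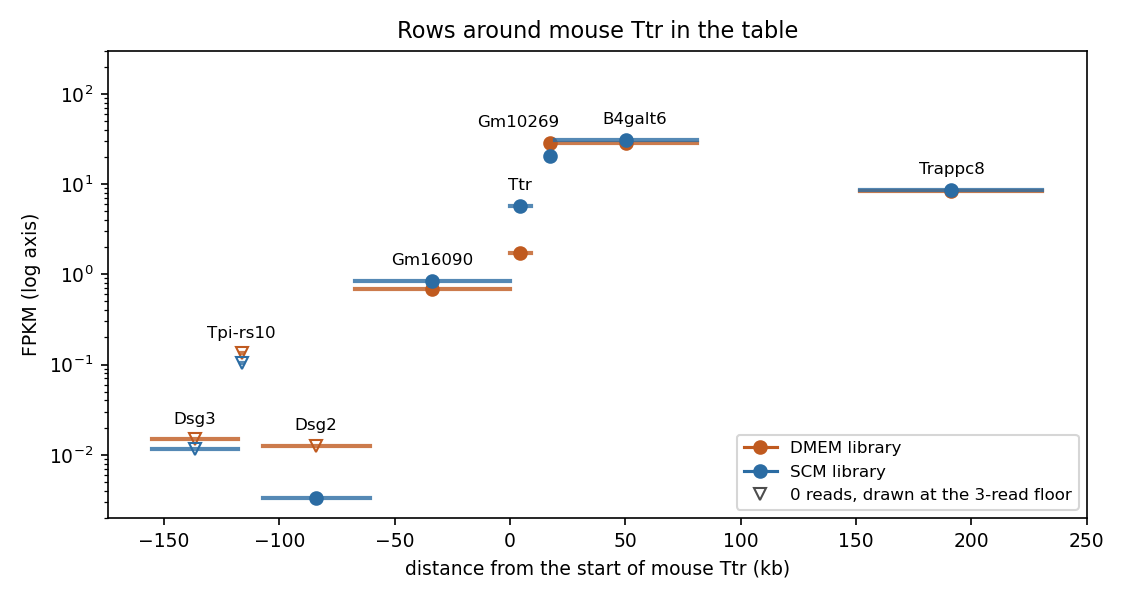
Rows around mouse Ttr, placed by distance in kb from its start (horizontal bars span each row), with FPKM on a log axis for DMEM (orange) and SCM (blue). Open triangles mark 0 reads at the 3-read level. The libraries lie close together for Gm16090, B4galt6 and Trappc8, and apart for Ttr, while Dsg3 and the pseudogene Tpi-rs10 had 0 reads in both.

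On the log2(FPKM + 1) scale no other row had a ratio close to that of human TTR. Of 6539 protein-coding rows with at least 5 FPKM in the higher library, 0 lay within 0.1 log2 units of it. The nearest on that scale was Mthfd2, which encodes a mitochondrial folate enzyme, at a log2 difference of -3.42, which is 2.65 log2 units away. Chac1, an enzyme that degrades glutathione, stood at -3.10, the secreted hormone gene Stc2 at -2.83 and Aldh18a1, an enzyme of proline synthesis, at -2.79. This order depends on the pseudocount. In plain fold Chac1 was 33.9-fold lower in SCM (21.2 to 57.7) and Mthfd2 14.7-fold lower (13.1 to 16.5), beside 78.9-fold for human TTR. Likeness rests on 2 libraries alone. Mouse Ttr had 30 such rows within 0.1 log2 units, the closest being Gm2115, Vps37b, Itga6, Mical2 and Adipor2, with log2 differences of 1.31, 1.30, 1.32, 1.30 and 1.29. Vps37b encodes a subunit of the endosomal sorting machinery, Itga6 a laminin-binding integrin and Adipor2 an adiponectin receptor.

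**Figure D4:**
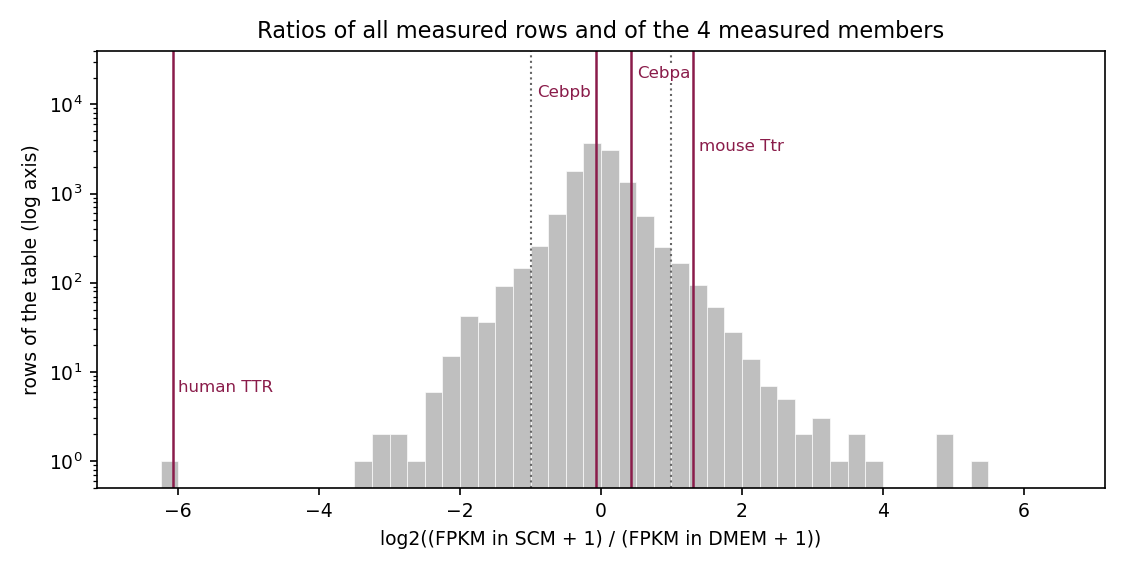
Number of measured rows (log axis) by their difference on the log2(FPKM + 1) scale, SCM minus DMEM, where solid lines mark the 4 measured genes of the set and the 2-fold limits dotted. Human TTR, at -6.08, lies in the lowest bar, mouse Ttr lies past the upper limit at 1.31, and Cebpa and Cebpb lie between the limits at 0.43 and -0.07.

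Among the regulators, the hepatocyte nuclear receptor and forkhead genes were at or near 0. Hnf4a had 0 reads in both libraries, which at its length allows up to 0.0214 FPKM in DMEM and 0.0169 in SCM. Foxa1 also had 0 reads in both, with limits of 0.0310 and 0.0246 FPKM, and Foxa2 likewise, with limits of 0.0435 and 0.0345. Foxa3 had 1 read in DMEM and 0 in SCM, where the limit was 0.0402 FPKM. Onecut1 had 0 reads in both, with limits of 0.0251 and 0.0199 FPKM. These 5 genes were under the filter, so no fold is given for them, and the 461 FPKM of human TTR in DMEM stood beside 0 reads of Hnf4a, Foxa1, Foxa2 and Onecut1.

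The C/EBP genes were the measured regulators. Cebpb (ENSMUSG00000056501), on chromosome 2 of GRCm38 at 167688915 to 167690418, had 1087 reads in DMEM and 1305 in SCM, or 24.8 FPKM (23.4 to 26.4) and 23.7 FPKM (22.4 to 25.0), and the intervals overlap. The level in DMEM was 1.05 times that in SCM (0.968 to 1.14), an interval that holds 1. Cebpa (ENSMUSG00000034957), on chromosome 7 at 35119293 to 35121928, had 64 reads in DMEM and 142 in SCM, or 0.835 FPKM (0.643 to 1.07) and 1.47 FPKM (1.24 to 1.73). The Cebpa intervals do not overlap, and the ratio was 1.76-fold higher in SCM (1.30 to 2.40), under the 2-fold limit. Cebpb was 29.8-fold above Cebpa in DMEM and 16.1-fold above it in SCM. Human TTR was 18.6-fold above Cebpb in DMEM, whereas in SCM Cebpb was 4.05-fold above human TTR. In DMEM the order of levels was human TTR, Cebpb, mouse Ttr and Cebpa, with no overlap of neighbours' intervals. In SCM it was Cebpb, then human TTR and mouse Ttr with overlapping intervals, then Cebpa.

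Both C/EBP rows overlap a row on the other strand, and the sources used here do not say whether reads were counted by strand, so reads of such pairs may be mixed. The noncoding Gm45091 overlaps 313 bases of Cebpa and had 1 read in DMEM and 14 in SCM. Tmem189 overlaps 908 bases of Cebpb and had 507 and 500 reads. What part of the Cebpa or Cebpb reads belongs to these rows was not tested.

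The promoters of the C/EBP genes are shown because these are the regulators whose RNA was present in both media. They are the 250 bases before the RefSeq start, GRCm38.p6, plus strand, 5′ to 3′, Cebpb at chr2:167688665-167688914 and Cebpa at chr7:35119043-35119292. Capitals mark TGACG, the core of the cAMP response element bound by CREB and ATF factors, on either strand in Cebpb, and the TATA box letters TATAAA in Cebpa.
Cebpb: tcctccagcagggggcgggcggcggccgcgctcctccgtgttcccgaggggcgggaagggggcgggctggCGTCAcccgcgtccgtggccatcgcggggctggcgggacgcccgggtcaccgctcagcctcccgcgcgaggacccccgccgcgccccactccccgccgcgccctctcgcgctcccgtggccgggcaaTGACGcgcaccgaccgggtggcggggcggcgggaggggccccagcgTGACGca
Cebpa: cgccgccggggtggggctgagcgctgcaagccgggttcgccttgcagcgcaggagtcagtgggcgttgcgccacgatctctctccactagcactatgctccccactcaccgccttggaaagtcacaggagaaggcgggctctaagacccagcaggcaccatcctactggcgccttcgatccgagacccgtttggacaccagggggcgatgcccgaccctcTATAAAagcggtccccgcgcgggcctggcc

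The Cebpb window held 3 matches to TGACG, beginning 180, 53 and 7 bases before the start, and the Cebpa window 0. Of 32851 promoter windows of this length, 17.8% held at least 1 match. The full palindrome TGACGTCA was in neither window and in 1.55% of all. The C/EBP-ATF composite letters TGATGCAA were in neither and in 0.791% of all, and the C/EBP letters TTNNGNAA, searched on both strands like the others, were in neither and in 36.8% of all. The GC box letters GGGCGG matched 5 times in the Cebpb window, 2 of them overlapping, and 0 times in Cebpa, against 32.7% of windows with a match. The Cebpa window held TATAAA once, 30 bases before the start. Of all windows 12.4% held at least 1 match, at any place and on either strand. G and C made up 81.6% of the Cebpb window and 66.4% of the Cebpa window. All 7 regulators had windows in the RefSeq table, 10 in all, and beside Cebpb only Onecut1 held TGACG, once.

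Genes known to act on Cebpb transcription or on its protein were within 2-fold for 12 of 14. All 14 genes of that list were measured, with 0 called higher and 2 lower, beside 3.10% and 2.80% of all measured rows. Their median log2 difference was -0.06, beside -0.03 over all measured rows. The 2 called lower were Atf4, the leucine zipper factor of the amino acid response, with 86.1 and 17.3 FPKM in DMEM and SCM, and Trib3, a pseudokinase induced by it, at 5.53 and 0.526 FPKM. Atf4 was 4.97-fold lower (4.70 to 5.27) and Trib3 10.5-fold lower (7.59 to 14.9). Creb1, which binds cAMP response elements, had 7.81 and 7.96 FPKM, and the kinase gene Mapk3, the most abundant in SCM, 51.1 and 53.8.

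The other measured C/EBP genes were also within 2-fold. Of the 7 genes of this list, Cebpa and Cebpb included, 6 were measured, with 0 called and a median of -0.12. Among all measured rows 5.89% were called and the median was -0.03, so 0 of 6 carries little weight. Cebpg, a short partner that lacks an activation domain, had 25.3 and 15.7 FPKM and was 1.61-fold lower (1.54 to 1.69). Cebpz, which shares the symbol but encodes a CCAAT-binding protein of another family without the leucine zipper, had 21.7 and 18.4 FPKM. Ddit3, which encodes the stress factor CHOP, had 11.9 and 10.5 FPKM, and Cebpd, an acute phase factor, 3.18 and 3.60. Cebpe, a factor of granulocytes, had 0 reads in both. Of the measured leucine zipper genes Cebpb and Cebpg were the most abundant in both libraries and Cebpa the lowest.

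Relatives of the undetected factors had reads. In the forkhead list the FoxO genes, targets of insulin signalling, were measured for 3 of 4, with Foxo4 at 38.2 and 42.1 FPKM, Foxo3 at 16.7 and 23.2 and Foxo1 at 3.92 and 4.90. All 3 lay above 0 in log2 difference, with a median of 0.26, and 0 were called. Over all 12334 measured rows 5647 lay above 0, the median was -0.03 and 5.89% were called. Of the nuclear receptors that bind sites like those of HNF4A, 5 of 8 were measured and 0 called, with a median of 0.05. Beside the share over all rows, 0 called of 3 or of 5 genes carries little weight. Nr2f2, which encodes COUP-TFII, was the most abundant at 141 and 156 FPKM, and Nr2f1, for COUP-TFI, had 16.8 and 22.4 FPKM. Nr2f6 had 4.09 and 3.83 FPKM, Rxra, a partner of many nuclear receptors, 8.47 and 8.39, and Rxrb 5.76 and 6.01. Hnf4g had 0 reads in both libraries. Of the Onecut genes 0 of 3 were measured, and the highest value among them was 0.0343 FPKM, for Onecut3 in SCM.

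**Figure D5:**
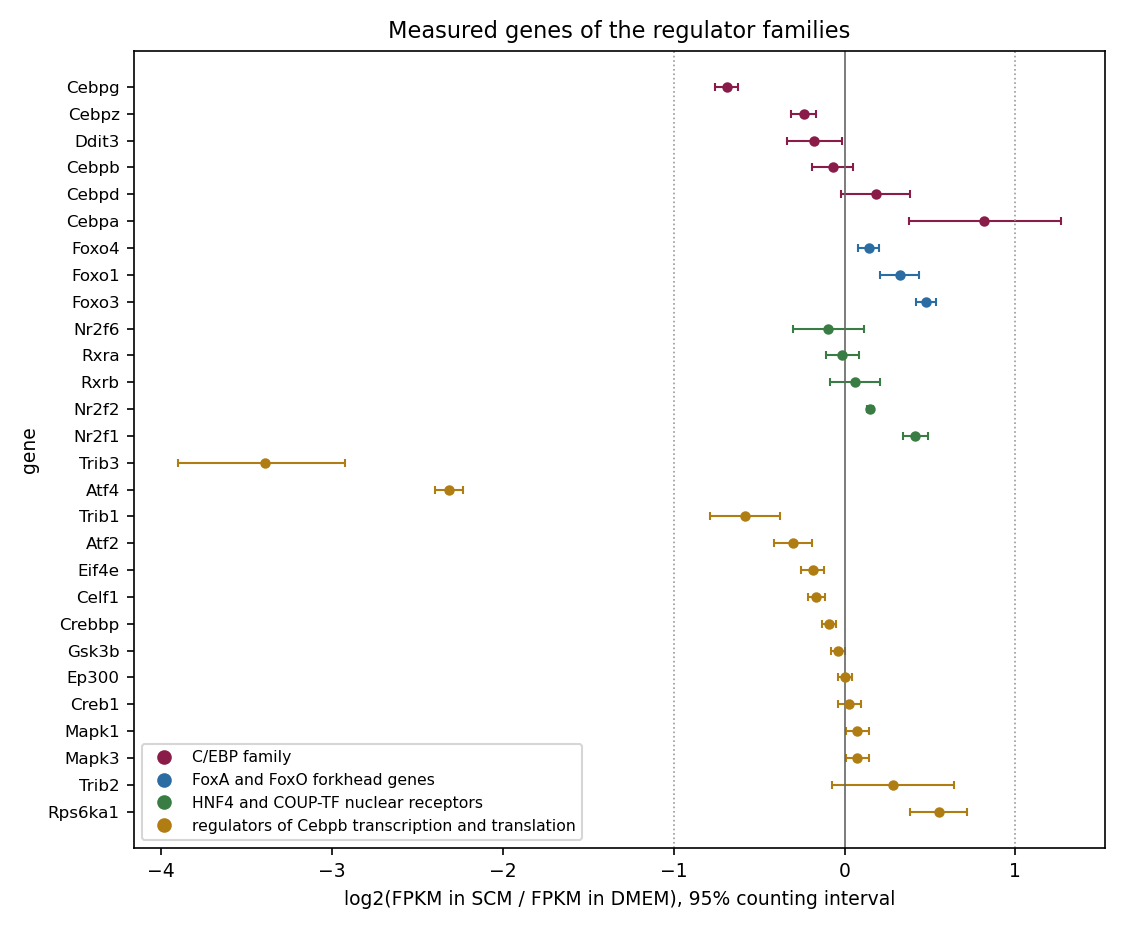
Plain log2 ratio of FPKM, SCM over DMEM, of each measured gene in 4 lists, with 95% counting intervals, coloured by list, and the 2-fold limits dotted. Points of the C/EBP, FoxO and nuclear receptor genes lie between the limits, with the interval of Cebpa reaching past the upper one, and Trib3 and Atf4 lie beyond the lower one, at -3.39 and -2.31.

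The table's own annotation tags 337 rows with the term for DNA-binding transcription factor activity specific for RNA polymerase II, all 7 regulators among them. Cebpb ranked 26 of these by FPKM in DMEM and 21 in SCM, and Cebpa 153 and 144. No read in either library was found for 116 of the 337 rows, a group that holds Hnf4a, Foxa1, Foxa2 and Onecut1. In the whole table this held for 31595 of 55323 rows. Of the 160 measured rows with this tag 8 were called higher and 5 lower, beside 382 and 345 of all 12334 measured rows.

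Further liver factors were mixed in presence. Of 20 genes in the list 8 were measured, beside 12334 of the 55323 rows of the table. Of the 8, 1 was called higher and 0 lower, beside 3.10% and 2.80% of all measured rows, and the median was 0.14. The gene called was Klf15, a factor of fasting metabolism, with 0.567 and 2.82 FPKM, 4.98-fold higher (3.64 to 6.96). With a pseudocount of 3 FPKM its log2 difference of 0.71 was under the limit. Xbp1, a factor of the secretory pathway, had 16.4 and 16.0 FPKM and Tef, a clock-output factor, 13.0 and 10.4. Nr5a2, a nuclear receptor gene of bile acid metabolism, had 0 reads in both libraries.

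Few other products of the hepatocyte were measured. Of 30 genes for secreted proteins and enzymes of the liver 28 were under the filter and 21 had 0 reads in both libraries, among them Alb, for albumin, Ahsg and Fgb. Over all 55323 rows 42989 were under the filter and 31595 had 0 reads in both. The 2 measured of the 30 were Trf, for the iron carrier transferrin, with 2.82 and 18.9 FPKM, and Asgr1, a subunit of the asialoglycoprotein receptor, with 11.5 and 7.53. Trf was called higher, at 6.72-fold (5.92 to 7.65), beside 3.10% of all measured rows. Asgr1 was 1.52-fold lower (1.34 to 1.73) and was the single measured gene of the 8 hepatocyte markers.

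The cell type in the labels was checked against marker genes. All 11 Schwann cell markers were measured, and they summed to 4254 FPKM in DMEM and 4249 in SCM. Of the 11, 2 were called higher and 0 lower, beside 3.10% and 2.80% of all measured rows. Sox10, the lineage factor, had 126 and 113 FPKM and S100b 177 and 213. Ngfr, a neurotrophin receptor gene, had 2061 and 1079 FPKM. Ncam1, an adhesion molecule gene with 61.3 and 200 FPKM, was among those called higher. Human TTR stood above 8 of these 11 genes in DMEM and above 2 in SCM. Of the other tissues that make transthyretin, 14 of 14 choroid plexus markers and 6 of 6 alpha cell markers were under the filter, with 12 and 5 at 0 reads in both libraries. Their summed levels were 0.00944 and 0.0504 FPKM for choroid plexus in DMEM and SCM, and 0 and 0.0103 FPKM for alpha cells. Over all 55323 rows 42989 were under the filter and 31595 had 0 reads in both libraries. The 8 hepatocyte markers, of which 6 had 0 reads in both libraries, summed to 11.5 and 7.57 FPKM, nearly all Asgr1. All 7 fibroblast and all 6 endothelial markers were under the filter, summing to 0.186 and 0.118 FPKM and to 0.425 and 0.215. Of 7 macrophage markers 1, Cd68, was measured, at 1.34 and 1.45 FPKM. Of 5 perineurial markers 2 were measured, Slc2a1, a glucose transporter gene, at 3.10 and 3.02 FPKM, and Itgb4, an integrin gene that Schwann cells express too, at 0.941 and 4.25. Itgb4 was called higher, and not with a pseudocount of 3 FPKM, where its log2 difference was 0.88.

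Carriers and receptors that meet transthyretin or its ligands formed a list of 15 genes. Of these 4 were measured, beside 12334 of the 55323 rows of the table. All 4 lay above 0 in log2 difference, with a median of 0.25, 1 called higher and 0 lower. Among all 12334 measured rows 3.10% were called higher and 2.80% lower, 5647 lay above 0 and the median was -0.03. Thra, a thyroid hormone receptor gene, had 18.3 and 22.1 FPKM, and the endocytic receptor gene Lrp1 8.25 and 9.90. Slc16a10, a transporter of aromatic amino acids and thyroid hormone, had 2.46 and 2.56 FPKM. Rbp4, whose protein travels in blood bound to transthyretin, had 0 reads in both libraries, and Lrp2, for the receptor megalin, had 0 in DMEM and 1 in SCM.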

How the data were processed

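RNA of TgS1 cells from 2 media, 1 library each, was compared. The authors deposited FPKM values with gene length, biotype and coordinates for each row, per the file headers. Per the submitters' processing notes, the tools were STAR 2.7.9a, featureCounts 2.0.1, cutadapt 3.1, Trimmomatic 0.39 and Trim Galore, with builds GRCm38.p6 and mm10. The sources used here give neither their settings nor their order. The Length column, other annotation, was taken as the authors deposited it. Identifiers of 8 mouse genes of the set were found in GENCODE M21 (GRCm38), 0 at the table's position and 8 with the same span elsewhere, so printed positions are those of GENCODE.

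FPKM times length came in whole steps of 1 read (100% of rows within 0.01 of a whole read), giving 29085791 reads in DMEM and 36666676 in SCM. From these, 95% Clopper-Pearson intervals of ratios and shares and exact Poisson intervals of levels were computed (scipy 1.17.1). A count of 0 was given the limit of 3 reads, which lies below the upper end of its 95% exact interval. The pseudocount was 1 FPKM. Medians of lists cover measured genes. Ddit3 has 2 rows and the longer was used. Intervals and calls were checked on simulated reads drawn with counting error alone, which the intervals assume. Variation between cultures or library preparations was not part of that check. No molecular identifiers were given, so amplified copies may count more than once.

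The genes and the 17 lists were chosen with earlier results of these data known. Named were all 9 genes, the measured genes of their families, from each other list the genes past 2-fold and the most abundant 2, the nearest protein-coding neighbours of Ttr, and the 5 rows with the ratio nearest to human TTR, Ttr and Cebpb. Some genes that this rule takes are not reported here. Genes at 0, further neighbours of Ttr and some markers were named after their values were seen, and the motifs and the annotation term were also chosen then.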

Additional observations from a re-analysis of the deposited data

How the results depend on the processing

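No paired analysis was possible because each medium has 1 library, and for the same reason no library could be left out. Human TTR was lower and mouse Ttr higher under the 3 pseudocounts and 3 scalings tried, with log2 differences from -6.28 to -5.71 and from 0.89 to 1.69. With a pseudocount of 3 FPKM they were -5.71 and 0.89, the second under the 2-fold limit. The share of human reads, without length, was 99.3% in DMEM and 34.6% in SCM. The regulators called were 0 in each direction under all 9 alternatives run, with 2 of the 7 tested in the main setting, 1 with a filter of 5 FPKM and 7 with none. In the main setting 5.89% of all measured rows were called, so 0 of 2 carries little weight. The 1.5-fold setting kept the pseudocount of 1 FPKM, where Cebpa stood at 0.43 in log2 difference. Its plain ratio was 1.76-fold higher in SCM, and with 0.1 FPKM its log2 difference was 0.75. A limit of 1.5-fold with 0.1 FPKM was not run. Over all rows, the numbers higher and lower were 681 and 625 with a pseudocount of 0.1 FPKM, 148 and 131 with 3 FPKM, 974 and 928 at 1.5-fold, 210 and 165 with a filter of 5 FPKM, and 250 and 145 among protein-coding rows. The pseudocounts kept the same 12334 rows and the 2-fold limit, and rescale the log2 differences of low rows most. The filter and the protein-coding setting test fewer rows, and 1.5-fold lowers the limit. The scalings multiplied SCM values by 0.999 to 1.02. Depth limits low genes by length: 3 reads of a gene of 1 kb are 0.103 FPKM in DMEM and 0.0818 in SCM, and less for longer genes.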

Other observations

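Genes of the acute phase and of inflammation that C/EBP factors are known to control in other cells formed a list of 18. Of these 5 were measured and 9 had 0 reads in both libraries, among them Saa3, Lcn2 and Il6. Of all 55323 rows 12334 were measured and 31595 had 0 reads in both. The 5 measured genes of the list had 0 called higher, 1 lower and a median log2 difference of 0.28. Over all measured rows 3.10% were called higher and 2.80% lower, and the median was -0.03. The gene of the list called lower was the chemokine gene Ccl2, with 48.8 and 11.0 FPKM in DMEM and SCM, 4.43-fold lower (3.99 to 4.92). Il6ra, the receptor gene of interleukin 6, had 5.21 and 8.75 FPKM, and Stat3, its signal transducer, 6.42 and 8.18.

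Among liver factors within 2-fold, Dbp, an activator of the circadian output, had 5.64 and 9.14 FPKM, and Nfil3, which represses the same sites, 1.90 and 1.02. Dbp was 1.62-fold higher (1.45 to 1.81) and Nfil3 1.86-fold lower (1.38 to 2.52). Gata6 and Tbx3, factors of endoderm and of the developing liver that are used in other tissues as well, had 2.11 and 2.88 FPKM and 4.17 and 5.39 FPKM.

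Cebpb had 1837 protein-coding rows within 0.1 log2 units of its difference, the nearest being Zfp706, Zfp212, Ccdc71, Dusp11 and Mtmr12.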
